A study of Arabidopsis thaliana with 77 samples.

Results

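The single-base changes described here are mutations of the kind G/C to A/T that were called in a single line only, on both arms of chromosome 5, in 4 episuppressor lines of Arabidopsis thaliana, named 2-69, 2-20, 3-72 and 3-75. A call was taken when C was called as T or G as A, when it was listed in only 1 of 5 call files, and when it had a quality score (QUAL) of at least 50 and at least 10 reads. It also had to lie below 9 Mb, here the upper arm, or above 15 Mb, here the lower arm. These limits left 451 calls of 35604 deposited calls and of 2400 calls of the same class on chromosomes 1 to 5. Line 2-69 had 192 of them, 2-20 had 70, 3-72 had 116 and 3-75 had 73. The calls were thus chosen by their called base, their sharing between files, their quality and their depth, and these values are not treated as findings.

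The series holds 77 samples, of which 5 whole-genome libraries are analysed here. Each was made from rosette leaves of plants of the Columbia ecotype 4 weeks old. The 4 lines are labelled rdr1 rdr2 rdr6 ddm1, so they also carry mutations in RNA-dependent RNA polymerases of RNA silencing, and the comparison library is labelled rdr1 rdr2 rdr6. Each line has 1 library, so the spread between plants of a line is not measured, and whether the leaves came from 1 plant or several is not given in the labels. The library labelled rdr1 rdr2 rdr6 gave 0 calls by the same rule. The rule asks for absence from the other files, and that library had 59 calls of its own on these arms at any change and quality.

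DDM1 is a nucleosome remodeller without which plants lose DNA methylation from transposons and other repeats, and its gene lies near the lower end of chromosome 5. When a line is kept for a recessive mutation, selfing leaves that mutation and the DNA linked to it homozygous, and recombination sets how far the linked stretch reaches. A G/C to A/T change is written as G to A or as C to T depending on which strand of the pair held the changed G, so the reference base on the forward strand records that strand. Alkylating mutagens are known for this kind of change. How the changes in these lines arose is not given in the labels.

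The sequences around the DDM1 change, around the 2 arm calls on either side of the breakpoint where each line's homozygous block with DDM1 begins (single calls of the other zygosity bridged), and around 4 coding changes inside homozygous stretches, are shown first, because the breakpoints and the altered genes below refer to them. Each is 29 bases of the forward strand of TAIR10, from the RefSeq copy of that assembly, and the capital marks the reference base that was called as A or T. In 3-75 the arm calls bracket a wide gap, which is narrowed further on with calls between the arms. In 2-69 heterozygous calls between the arms, not used for these sequences, end the run around DDM1 nearer to DDM1. With no limits on quality and depth, the bridged run began nearer to DDM1 in all 4 lines.
DDM1, chr5:26652138-26652166: tgctgctgatacatGcatcctctatgaca
2-69 breakpoint, heterozygous side, chr5:7870476-7870504: gtttagccaaattcGacatctagtcgagt
2-69 breakpoint, homozygous side, chr5:8020523-8020551: ggtcaatgtgttcgGgatgacgccaaagc
2-20 breakpoint, heterozygous side, chr5:1090794-1090822: gccaagaaggctcaCttagagacattatg
2-20 breakpoint, homozygous side, chr5:2087835-2087863: tcaaagtggacttaGtgtttgacttgaag
3-72 breakpoint, heterozygous side, chr5:8351157-8351185: gttcatattttcctGcatccagactgcag
3-72 breakpoint, homozygous side, chr5:8775934-8775962: tctcattgtttttgGaagttgaatatgat
3-75 breakpoint, heterozygous side, chr5:8995312-8995340: agaatgagtaacctCaaaatgccaaaact
3-75 breakpoint, homozygous side, chr5:15580268-15580296: gcgatcttttcttaGcatgtgttaattac
2-20 MIM P617S, chr5:24717254-24717282: agtagtctgaactgGcccacgaaaaaacc
3-72 VIM3 A253V, chr5:15839154-15839182: tgacatcattctcaGctggtatgggacca
3-75 SMC5 L953F, chr5:5199052-5199080: caactatcctttacCtcgtctctcttcaa
3-75 AT5G52850 Q774*, chr5:21415283-21415311: gtgaacttttccttGaacctccacagtgc

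The DDM1 change itself was G26652152A, written as the reference base, the position on chromosome 5 and the called base, and it replaces cysteine by tyrosine in the protein (C615Y, of 764 residues). It is called in all 5 files and so is not one of the 451 line-specific calls. In 2-69 all 23 high-quality reads carried it, in 2-20 all 14, in 3-72 all 10 and in 3-75 all 7, and each call was homozygous. In the library labelled rdr1 rdr2 rdr6 it was heterozygous, with 9 reads for the change and 10 for the reference, which goes against reading that library as free of it.

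Under the quality and depth limits, the lower arm, which holds DDM1, was almost wholly homozygous in every line, and the upper arm was less so. On the lower arm 85 of 87 calls were homozygous in 2-69 (97.7%, exact binomial 95% interval 91.9 to 99.7%). Line 2-20 had 40 of 40 (100%, 91.2 to 100%), 3-72 had 78 of 80 (97.5%, 91.3 to 99.7%) and 3-75 had 37 of 38 (97.4%, 86.2 to 99.9%). For calls of the same class on the arms of chromosomes 1 to 4 the homozygous share was 48.3% in 2-69, 1.5% in 2-20, 36.9% in 3-72 and 78% in 3-75. All 4 lower-arm shares were above those values.

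On the upper arm 10 of 105 calls were homozygous in 2-69 (9.52%, 4.66 to 16.8%). Line 2-20 had 27 of 30 (90%, 73.5 to 97.9%), 3-72 had 7 of 36 (19.4%, 8.19 to 36.02%) and 3-75 had 13 of 35 (37.1%, 21.5 to 55.1%). Line 2-20 had the highest upper-arm share, although it had the lowest homozygous share on chromosomes 1 to 4. In 2-69, 3-72 and 3-75 the upper arm lay below the share on chromosomes 1 to 4 instead. The mean was 98.1 ± 1.25% on the lower arm and 39.0 ± 35.9% on the upper arm (SD, n = 4 lines).

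These shares depend on the limits, which removed heterozygous calls more often. With no limit on quality and depth, the lower-arm share was 86 of 93 calls in 2-69 (92.5%), while 2-20 had 44 of 52 (84.6%), 3-72 had 103 of 114 (90.4%) and 3-75 had 46 of 61 (75.4%). On the upper arm 2-69 then had 11 of 137 (8.03%), 2-20 had 29 of 51 (56.9%), 3-72 had 9 of 118 (7.63%) and 3-75 had 19 of 62 (30.6%). The shares on the arms of chromosomes 1 to 4 without limits were 40.6%, 1.84%, 21.5% and 55.7% in the same order. The lower arm was thus above the upper arm and above chromosomes 1 to 4 in 4 of 4 lines here too, but less completely homozygous.

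The homozygous share was 59.1 ± 34.7 percentage points higher on the lower arm (SD, n = 4), and higher in 4 of 4 lines. The exact two-sided sign-flip permutation test over the lines gave p = 0.125, the smallest p that 4 lines allow, so no test over lines here can pass 0.05. With Benjamini-Hochberg adjustment over the 4 results tested this way, the adjusted p from the permutation test was 0.333. Among calls with a QUAL of at least 100 the difference was 14.3 points, with 3 of the 4 lines at 0, since heterozygous calls have lower QUAL. The zygosity pattern of chromosome 5 was known from earlier results when the calls were chosen, so it is a description.

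**Figure D1:**
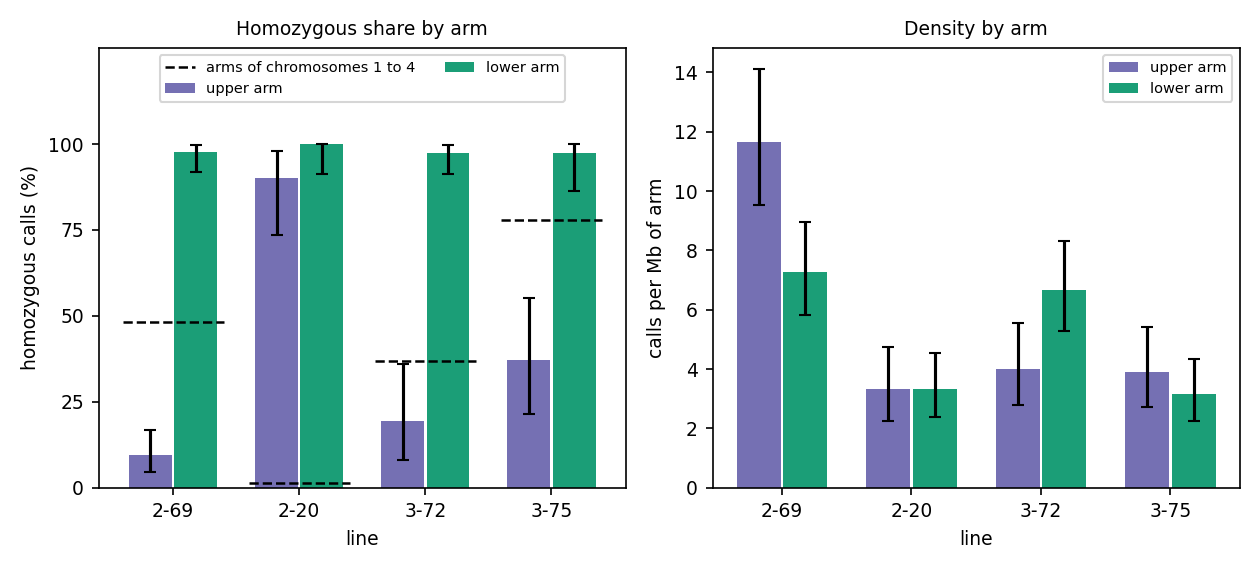
Left, the percentage of calls that were homozygous on the upper and lower arm of chromosome 5 in each line, with dashed lines for the arms of chromosomes 1 to 4. Right, calls per Mb of arm. Bars are single libraries, error bars are exact 95% intervals (binomial left, Poisson right) and cover counting error only. The lower-arm share is 97.4% or higher in each line, while density shows no common direction.

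Zygosity here is the deposited genotype, which was called from these same reads. The read shares below therefore describe the 2 classes and are no separate evidence for them. Homozygous calls had the called base in at least 84.6% of high-quality reads, and most had it in every read. Line 2-69 had 88 of 95 such calls with no reference read, 2-20 had 67 of 67, 3-72 had 81 of 85 and 3-75 had 49 of 50. Heterozygous calls had it in a median of 51.4% of reads in 2-69, 45.5% in 2-20, 62.5% in 3-72 and 56.3% in 3-75. The highest heterozygous value was 76.9%, in 3-72, so no heterozygous call reached the lowest homozygous one. Line 2-69 was read most deeply, with a median of 30 reads per call, against 18 in 2-20, 14 in 3-72 and 19 in 3-75, so zygosity is least precise in 3-72.

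**Figure D2:**
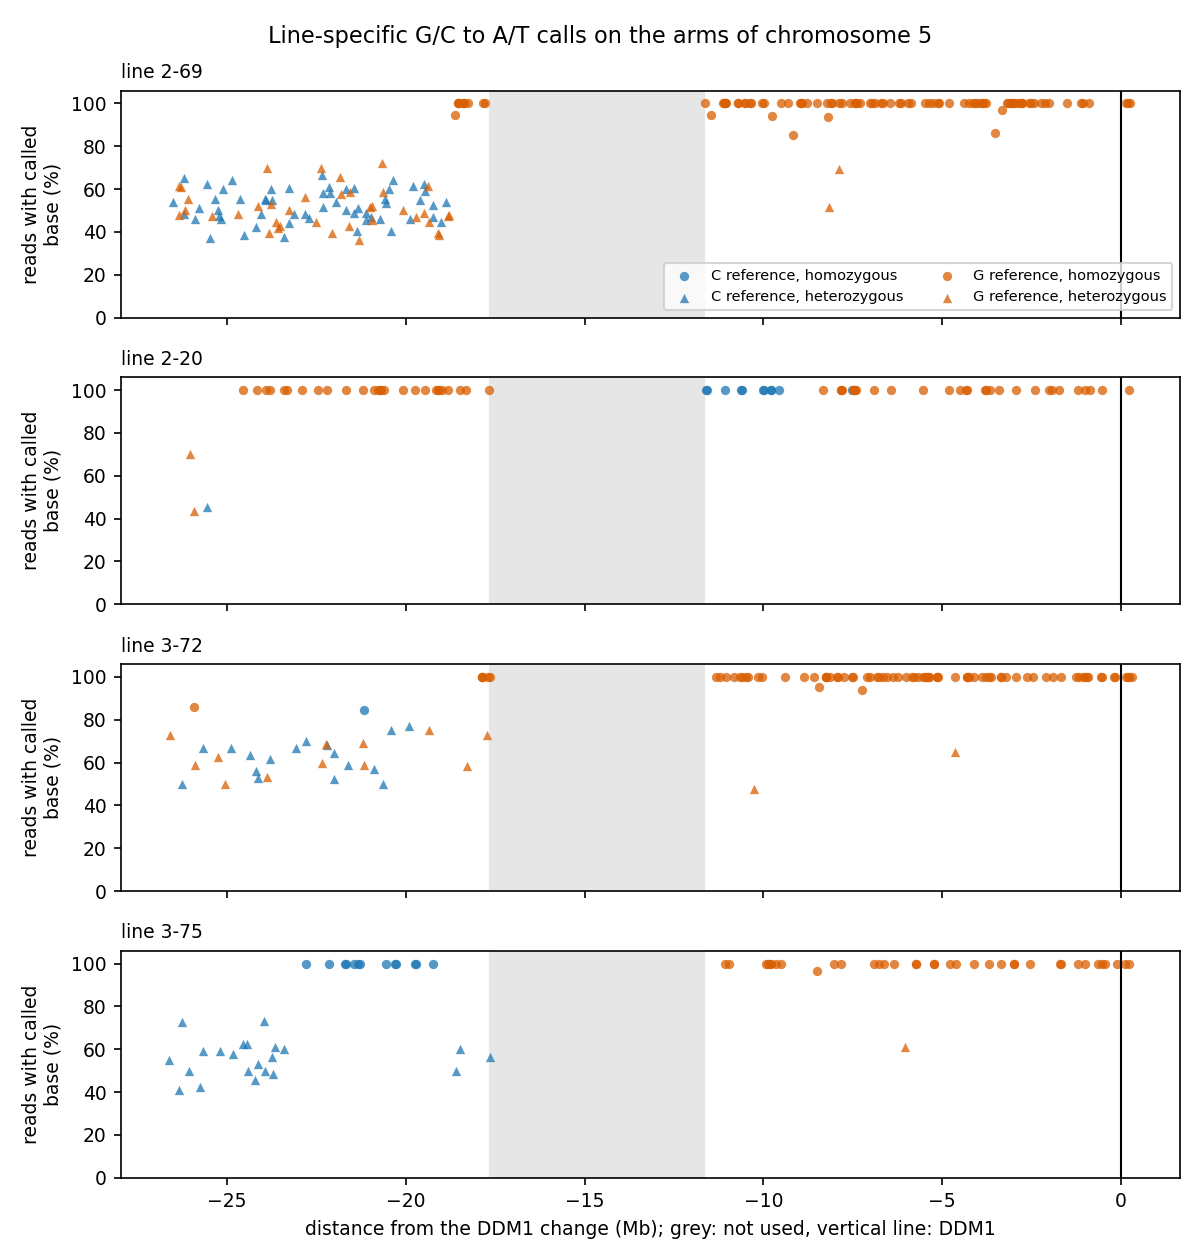
Each point is 1 call, placed by its distance from the DDM1 change in Mb (horizontal axis) and by the percentage of high-quality reads with the called base (vertical axis), with 1 panel per line. Colour gives the forward-strand reference base and shape the deposited zygosity, and the grey band between the arms was not used. Homozygous calls fill the right side in all 4 lines, reach furthest left in 2-20, and are mostly 1 colour over long stretches.

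The calls fell into long blocks of 1 zygosity, and in 3 lines the upper arm had a single main change from heterozygous to homozygous. In 2-69 an unbroken run of 95 heterozygous calls lay between 0.15 and 7.87 Mb, and every upper-arm call from 8.02 Mb on was homozygous. The bracketing calls were G7870490A in the 3′ UTR of AT5G23390, with the change in 12 of 25 reads, and G8020537A, which alters the galactinol synthase gene GolS5 (P245L), with 36 of 38 reads. On the arms alone these 2 calls leave a gap of 0.150 Mb for the breakpoint. With the calls between the arms added and single heterozygous calls bridged, the run around DDM1 began between 10.38 and 10.42 Mb instead.

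In 2-20 only 3 calls past the limits were heterozygous, between 0.62 and 1.09 Mb. The last, C1090808T, alters SDP1 (L155F), a lipase gene of seed oil breakdown, with 10 of 22 reads. The first homozygous call was G2087849A in intron 2 of AT5G06750, a protein phosphatase 2C gene, with 24 of 24 reads. From 2.09 to 26.88 Mb all 67 calls past the limits were homozygous, in a stretch of 24.8 Mb. With no limits, that stretch held 92 calls, of which 20 were heterozygous, with a QUAL of 33 at most.

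In 3-72 the calls up to 8.35 Mb were heterozygous except for 2 single homozygous calls at 0.74 and 5.47 Mb. These 2 had the called base in 12 of 14 (85.7%) and 11 of 13 reads (84.6%). The bracketing calls were G8351171A in intron 9 of AT5G24450, annotated as a subunit of transcription factor IIIC, with 7 of 12 reads, and G8775948A in the 3′ UTR of AT5G25280, with 15 of 15 reads. The gap between them is 0.425 Mb.

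Line 3-75 had more than 1 change of zygosity on the upper arm. Its first 19 calls, from 0.03 to 3.25 Mb, were heterozygous. The next 13, from 3.85 to 7.41 Mb, were homozygous, from D396D in the subtilase gene AT5G11940 to a call in the 5′ UTR of NAC090, a gene of the NAC family of transcription factors. The last 3, from 8.06 to 9 Mb, were heterozygous again, beginning with S21F in AT5G23890 at 18 of 36 reads. On the lower arm the homozygous calls began with the first one at 15.58 Mb, so on the arms alone the breakpoint lies in a gap of 6.58 Mb. With calls of the same class between the arms added and single heterozygous calls bridged, it lay between 9.45 and 10.35 Mb. Between the arms 21 of 25 calls of this line were homozygous (84%).

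When the run of homozygous calls around DDM1 was ended at the first heterozygous call, it measured 8.15 Mb in 2-69 (57 calls from 18.77 Mb), 24.8 Mb in 2-20 (67 calls from 2.09 Mb), 4.94 Mb in 3-72 (33 calls from 22.01 Mb) and 5.96 Mb in 3-75 (22 calls from 20.92 Mb). The mean was 10.96 ± 9.32 Mb (SD, n = 4), and it was 6.35 Mb without 2-20. With no limits on quality and depth the run stayed at 8.15 Mb in 2-69. It was then 2.64 Mb in 2-20, 0.465 Mb in 3-72 and 2.32 Mb in 3-75. With homozygous taken as the called base in at least 90% of reads, the run was 3.59 Mb in 2-69 and unchanged in the other lines. In 2-69 it was then ended by G23135150A, with 25 of 29 reads. The length and the order of the lines thus rest on the limits and on how zygosity is read. Towards the end of the chromosome no line had a heterozygous call beyond DDM1. The last calls lay 56.4 kb from the chromosome end in 2-69, 98.6 kb in 2-20, 17.3 kb in 3-72 and 93.9 kb in 3-75, so the stretch was open on that side as far as calls reached.

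In 3 lines the run was ended by a heterozygous call that stood alone among homozygous ones. When such single calls were bridged, the run began at 8.02 Mb in 2-69, 2.09 Mb in 2-20, 8.78 Mb in 3-72 and 15.58 Mb in 3-75. The lengths were then 18.9, 24.8, 18.2 and 11.3 Mb, with a mean of 18.3 Mb. With the calls between 9 and 15 Mb added as well, the run began at 10.42 Mb in 2-69 and 10.35 Mb in 3-75 and was the same in the other lines. In 2-69 it was then ended by heterozygous calls between the arms, where 56 of 65 calls were homozygous (86.2%). Bridging single calls with no limits on quality and depth gave shorter runs. They began at 15.94 Mb in 2-69, 24.25 Mb in 2-20, 22.01 Mb in 3-72 and 22.96 Mb in 3-75. Their lengths were 10.98, 2.64, 4.94 and 3.92 Mb in the same order, so the bridged run rests on the limits too.

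The single heterozygous calls numbered 6. In 2-69 they were G18491567A, in the pseudogene AT5G45605 with 16 of 31 reads, and G18761074A, in the TIR-NBS-LRR disease resistance gene AT5G46260 with 16 of 23 reads. In 3-72 they were G8931679A in the pseudogene AT5G25615 with 8 of 11 reads, G16396179A in the TIR-NBS-LRR gene AT5G40910 with 10 of 21 reads, and G22004419A in the pseudogene AT5G54203 with 11 of 17 reads. In 3-75 it was G20606522A in AT5G50640 with 11 of 18 reads. Of the 6, 3 lay in pseudogenes and 3 were synonymous, and none altered a protein. Over all 451 calls, 10 lay in pseudogenes, 65 were synonymous and 154 altered a protein.

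Each call with 50 reference bases on either side was searched for similar places elsewhere on chromosomes 1 to 5, counting an alignment of at least 90 bases with at least 90% identity. Of the 6 single heterozygous calls, 5 had such a place (83.3%), each at 99.01% identity or higher. The exception was G16396179A, with a depth of 21 reads against the line's median of 14. The other 5 had depths of 32 and 23 in 2-69 (median 30), 11 and 17 in 3-72 (median 14) and 19 in 3-75 (median 19). Of the heterozygous calls outside these 6, 11 of 148 had a similar place (7.43%), and of the homozygous calls 25 of 297 (8.42%). Among those homozygous calls were 3 of 2-69 at ends of runs. They were G8020537A in GolS5, with 2 similar places at up to 94.1% identity, and G18768674A in AT5G46270, with 4 at up to 95.05%. The third was G23135150A, with 5 at up to 99.01%. The search was chosen after the positions of the single calls were seen, and the part of these copies in the calls was not tested.

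Long parts of the homozygous stretches also carried almost only 1 reference base, a feature the rule did not use. In 2-20, and in 3-75 with the calls between the arms added, the base switched inside the stretch around DDM1. From 7.84 to 26.92 Mb 2-69 had 99 calls, and all but 1 of them had G as the reference base. From 7.3 to 26.96 Mb 3-72 had 88 calls with G and none with C. In 3-75 all 35 upper-arm calls had C, heterozygous ones included, and all 38 lower-arm calls had G. In 2-20 the stretch changed base inside its homozygous part, with 27 calls with G from 2.09 to 8.97 Mb, 10 with C from 15.06 to 17.1 Mb, and 30 from 18.31 to 26.88 Mb, of which all but 1 had G.

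The calls between the arms narrowed 2 of these switches. In 2-20 the change from G to C fell between 11.66 and 11.8 Mb, inside the homozygous stretch, and in 3-75 the change from C to G fell between 14.74 and 14.96 Mb, also among homozygous calls. In 2-69 the G block began at 7.84 Mb and the homozygous block at 8.02 Mb. Of the 99 arm calls of that G block 4 were heterozygous, and with the calls between the arms 13 of 164. In 3-72 the G block held 5 heterozygous calls among its 88 arm calls, and 7 of 126 with the calls between the arms.

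Pairs of neighbouring homozygous calls mostly shared their reference base. Line 2-69 had 89 of 91 such pairs (97.8%), 2-20 had 62 of 65 (95.4%), 3-72 had 78 of 78 (100%) and 3-75 had 47 of 47 (100%). On the arms of chromosomes 1 to 4 the share was 98.6% in 2-69, 100% of 2 pairs in 2-20, 99% in 3-72 and 96.2% in 3-75, so this was not particular to chromosome 5. Of neighbouring heterozygous calls, 2-69 had 47 of 94 pairs with the same base (50%), 2-20 had 1 of 2, 3-72 had 14 of 25 (56%) and 3-75 had 20 of 20 (100%). Their share on chromosomes 1 to 4 was 73% in 2-69, 74.8% in 2-20, 84.3% in 3-72 and 66.7% in 3-75. This comparison was also chosen after the values were seen and has no test.

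**Figure D3:**
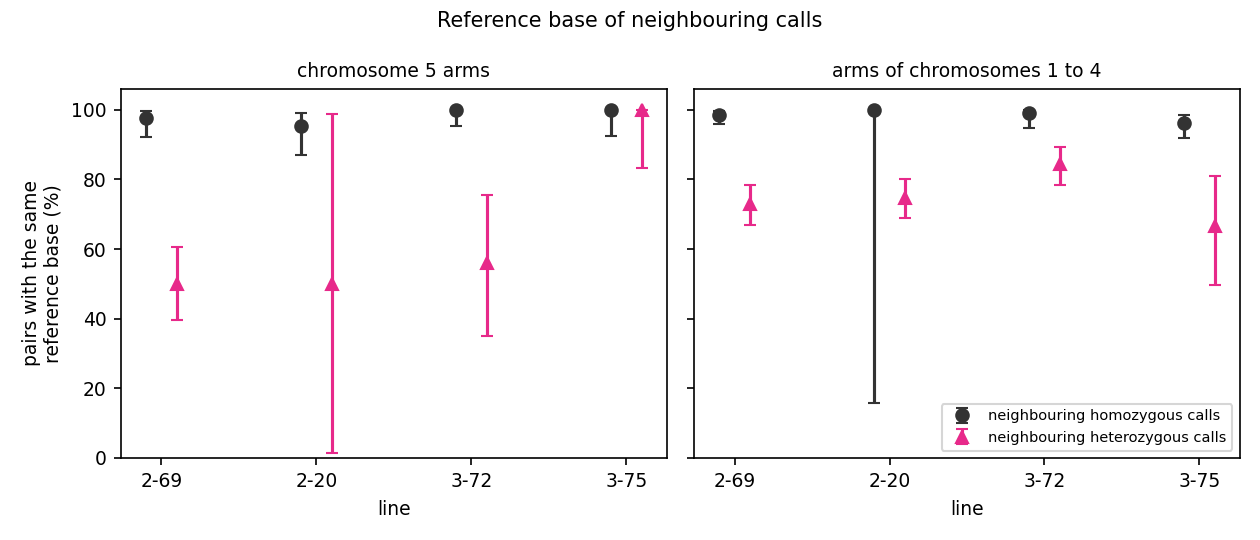
Percentage of neighbouring calls of the same zygosity that have the same forward-strand reference base, by line, on chromosome 5 (left) and on the arms of chromosomes 1 to 4 (right). Error bars are exact binomial 95% intervals over pairs, which are not independent. Homozygous pairs are at 95.4% or higher in each line, with only 2 pairs in 2-20 on chromosomes 1 to 4. Heterozygous pairs on chromosome 5 are at 50% in 2-69, 56% in 3-72 and 100% in 3-75. Line 2-20 has only 2 such pairs, too few to place it.

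Homozygous calls that broke a block were few. C15568837T lay among G calls in 2-69, in the 5′ UTR of AUG5, a gene of an augmin subunit that nucleates microtubules on microtubules, and all 25 reads carried it. C19129097T lay among G calls in 2-20, in an intron of AT5G47090, and all 15 reads carried it. The nearest homozygous neighbours of C15568837T were 9.004 and 10.088 kb away.

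By arm, C was the reference base of 54.3% of upper-arm and 1.15% of lower-arm calls in 2-69, and of 3.33% and 27.5% in 2-20. It was that of 50% and 0% in 3-72 and of 100% and 0% in 3-75. On the arms of chromosomes 1 to 4 it was that of 67.7% of calls in 2-69, 48.5% in 2-20, 66.7% in 3-72 and 25.7% in 3-75. Of all C and G bases of the reference, C makes up 49.99% on the upper and 49.93% on the lower arm. Lower minus upper arm gave −44.7 ± 51.3 percentage points (SD, n = 4), negative in 3 of 4 lines, with an exact sign-flip permutation p of 0.25 (0.333 adjusted). It was −26.3 points without 3-75 and −67.7 points without 2-20.

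Density did not differ in a common direction. On the upper arm 2-69 had 11.7 calls per Mb (exact Poisson 95% interval 9.54 to 14.1), 2-20 had 3.33 (2.25 to 4.76), 3-72 had 4 (2.80 to 5.54) and 3-75 had 3.89 (2.71 to 5.41). On the lower arm 2-69 had 7.26 (5.82 to 8.96), 2-20 had 3.34 (2.39 to 4.55), 3-72 had 6.68 (5.30 to 8.31) and 3-75 had 3.17 (2.25 to 4.35). Line 2-69 was denser on the upper arm, 3-72 on the lower arm, and 2-20 and 3-75 differed little. With no limits on quality and depth the upper arm had 15.2 calls per Mb in 2-69 and 13.1 in 3-72, against 5.67 in 2-20 and 6.89 in 3-75.

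The difference in density, lower minus upper, was −0.608 ± 2.92 calls per Mb (SD, n = 4), positive in 2 lines and negative in 2, with an exact sign-flip permutation p of 0.75, also after adjustment. The direction rests on the quality limit and on 1 library. At any quality and depth it was −3.54 and negative in 4 of 4 lines, at a QUAL of at least 100 it was 2.86 and positive in 4 of 4 lines, and without 2-69 it was 0.657. The number of bases with enough reads to call is not in the files, so the densities are per Mb of arm. No 2 calls of a line lay within 1 kb of each other on an arm, and the closest pair, in 2-69, was 1771 bases apart.

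The limits of the rule cut heterozygous calls more often than homozygous ones. Of the line-specific calls of this kind at any quality, the rule kept 97.9% of the homozygous and 72.9% of the heterozygous in 2-69, and 91.8% and 10% in 2-20. It kept 75.9% and 25.8% in 3-72, and 76.9% and 39.7% in 3-75. Just inside the quality limit, at QUAL 50 to 60, were 28 calls, and just outside, at 40 to 50, were 32, with 0 homozygous in both. Of 37 calls left out for fewer than 10 reads, 35 were homozygous.

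The base before the changed G was more often a purine than in the background in each line. With each change written on the strand of the G, the base before it was a purine in 62.5% of the 451 calls (exact binomial 95% interval 57.88 to 67.01%), against 51.6% around all G and C of the arms. The share was 61.5% in 2-69, 64.3% in 2-20, 61.2% in 3-72 and 65.8% in 3-75, above the background in 4 of 4 lines. A T came before the G in 17.7% of calls, against 35.5% of the background. The base after the G varied between lines, and it was another G in 28.1% of calls in 2-69 (21.9 to 35.1%) and in 9.59% in 3-75 (3.94 to 18.8%), against 18.5% of the background. On the complementary strand the changed C was in a CG dinucleotide in 19.7% of calls against 13.0%. These intervals treat calls as independent and cover counting error only.

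Of the 451 calls, 351 lay in genes and 100 between them (22.2%). There were 152 missense, 2 stop-gained and 0 splice-site changes, 65 synonymous changes, 83 in introns, 36 in UTRs, 10 in pseudogenes and 3 in non-coding RNA genes. Each change was read on the longest coding sequence of its gene. The protein-altering share on the upper arm was 41.9% in 2-69, 20% in 2-20, 41.7% in 3-72 and 42.9% in 3-75. On the lower arm it was 29.9%, 27.5%, 32.5% and 28.9% in the same order. The share on the arms of chromosomes 1 to 4 was 31.4% in 2-69, 38% in 2-20, 36.6% in 3-72 and 39% in 3-75, so the lower arm lay below it in 4 of 4 lines. The exact binomial 95% interval of each lower-arm share included that line's value on chromosomes 1 to 4, with the widest from 15.4 to 45.9% in 3-75.

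Lower minus upper arm, the protein-altering share differed by −6.90 ± 9.80 percentage points (SD, n = 4), negative in 3 of 4 lines, with an exact sign-flip permutation p of 0.25 (0.333 adjusted). It was −11.7 without 2-20 and −4.56 without 3-75. By zygosity, homozygous calls held 89 missense and 47 synonymous changes, and heterozygous calls 63 and 18. The counts were 30 and 16 against 39 and 10 in 2-69, 16 and 10 against 1 and 1 in 2-20, 29 and 10 against 12 and 5 in 3-72, and 14 and 11 against 11 and 2 in 3-75. In 3-72 the ratio was higher among homozygous calls, and in 2-69 and 3-75 it was higher among heterozygous ones.

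**Figure D4:**
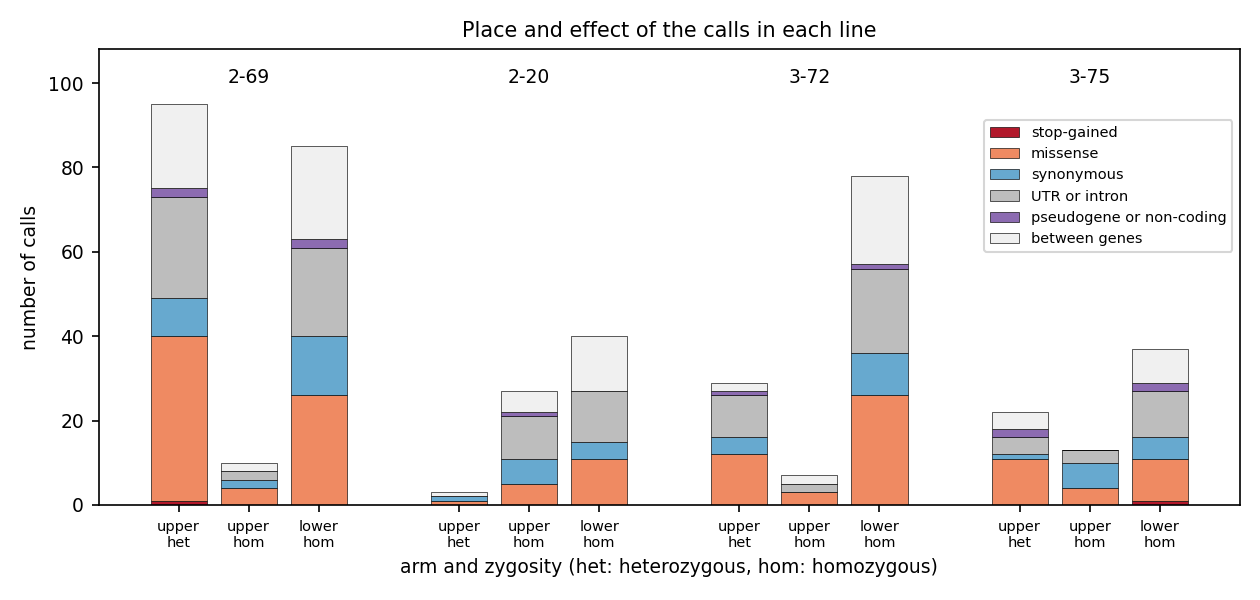
Number of calls by place and effect for the heterozygous and homozygous calls of the upper arm and the homozygous calls of the lower arm in each line. The 5 heterozygous calls of the lower arm are not drawn. Line 2-69 has 40 protein-altering heterozygous calls on the upper arm, and line 2-20 has 1.

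The run around DDM1, ended at the first heterozygous call, held 16 homozygous protein-altering changes in 2-69, 16 in 2-20, 9 in 3-72 and 4 in 3-75 (11.25 ± 5.85, SD, n = 4). With single heterozygous calls bridged, the counts were 30, 16, 28 and 11, with a mean of 21.25. With no limits on quality and depth they were 16, 2, 3 and 2 in the unbridged run. With homozygous taken as at least 90% of reads, the unbridged run held 5 in 2-69, 16 in 2-20, 9 in 3-72 and 4 in 3-75.

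In 2-69 the changes in that run included R430H in FRA1, a kinesin motor needed for ordered cell wall deposition, with 32 of 32 reads. Others were A152V in FTSZ1-1, a tubulin-like protein that forms the plastid division ring, with 37 of 37 reads, and A294V in IMPA-5, an importin alpha of nuclear import, with 33 of 33 reads. P385S lay in D6PK, a kinase that acts on auxin efflux carriers, with 33 of 33 reads, in a stretch with a similar place elsewhere at 91.1% identity. The call nearest the chromosome end was T244I in the zinc-finger gene ZF1, which changes residue 244 of 245, with 36 of 36 reads. The others by the rule for named genes were P1098L in the TIR-NBS-LRR gene AT5G48770, A28V and G34E in the F-box type genes AT5G50220 and AT5G52080, R327Q in ATCRT1, G156R in GulLO4, D961N in AT5G58450 and V258M in the kinase gene AT5G58540. The stretch around the GulLO4 change has a similar place elsewhere at 93.1% identity. By the limit of 90% of reads, the changes in AT5G58450, AT5G58540 and ZF1 stayed in the run. The other changes named in this paragraph lay outside it.

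In 2-20 the named changes ran along nearly the whole chromosome. On the upper arm they were P155L in the glycosyl hydrolase gene AT5G10560, R211Q in the pentatricopeptide repeat gene AT5G16640, P566S in VAR3, a zinc finger protein of chloroplast development, R390C in the Myb-related gene MYR1 and L159F in emb1379. On the lower arm, D930N lay in RPS6 and V161I in ADR1-L3, both of the NBS-LRR kind of immune receptors, with 19 of 19 and 26 of 26 reads. P44L lay in GNC, a GATA factor that promotes greening, with 26 of 26 reads. R76H in the splicing factor gene RS41, E564K in the oxoprolinase gene OXP1 and R495W in AT5G56410 were the others, beside the MIM change below.

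In 3-72 all 9 were missense. S91F lay in IAMT1, which methylates the auxin indole-3-acetic acid, with 15 of 15 reads. D33N lay in FRO1, a subunit of mitochondrial complex I, with 17 of 17 reads, and P243S in the phospholipase C gene PLC4 with 13 of 13. The others were D332N in AT5G55050, S89L in AT5G55670, S109F in AT5G63390, G430E in AT5G64030, T125M in AT5G67290 and A487T in the NPH3 family gene AT5G67385, each in every read, with 10 to 14 reads.

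In 3-75 the run held the only homozygous stop codon. It was Q774* in AT5G52850, a pentatricopeptide repeat gene, in 18 of 18 reads, and it leaves out the last part of 893 residues. The missense changes were A44T in FOLK, a farnesol kinase gene of abscisic acid responses, with 22 of 22 reads, T224I in the carboxyesterase gene CXE20 with 21 of 21, and A329V in the peroxidase gene AT5G64100 with 21 of 21. The only other stop codon on the arms was heterozygous. It was Q334* in TGA4, a bZIP factor of the salicylic acid response, in 2-69 on the upper arm, with 20 of 47 reads and 364 residues in the full protein.

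Over all 5732 protein-coding genes of the arms, 153 had a line-specific protein-altering call past the limits in any of the 4 lines (2.67%). Genes known from silencing and from chromosome maintenance were looked up in lists of 13 and 12 genes of chromosome 5. Of the 13 silencing and chromatin genes, 1 had such a call, VIM3, which encodes a methylcytosine-binding protein that acts with the maintenance methyltransferase MET1. A253V in VIM3 was homozygous in 3-72, in 16 of 16 reads. With 50 bases on either side it has 2 similar places elsewhere in the genome at up to 98.0% identity, so reads of its paralogs could be placed there. DME, a DNA glycosylase of active demethylation, had a heterozygous intron call in 2-69. The other 11, among them MET1, DRM2, SUVH4, HDA6 and DDM1 itself, had no line-specific call past the limits. The DDM1 change, called in all 5 files, is not counted here.

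Of the 12 genes of chromosome maintenance and meiosis, 2 had a protein-altering call, against the 2.67% of all genes on the arms. The list was chosen with earlier results known and counts this small have no test here, so nothing is read from them. Both genes encode core subunits of the SMC5/6 complex, which acts in DNA repair. MIM, listed as SMC6B, carried P617S (of 1057 residues) in 2-20, homozygous in 19 of 19 reads, and lies within the run around DDM1. SMC5 carried L953F (of 1053 residues) in 3-75, homozygous in 15 of 15 reads, in the homozygous block of the upper arm and outside the run around DDM1. The other 10 had no line-specific call past the limits.

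The 154 protein-altering calls lay in 153 genes, so a single gene was altered in 2 lines and none in 3 or more. It was emb1379 (AT5G21140), known as the SMC5/6 subunit NSE1, and its protein has 312 residues. Line 2-69 had R18Q there, heterozygous in 13 of 22 reads, and 2-20 had L159F, homozygous in 17 of 17 reads. No gene had 2 protein-altering calls in the same line.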

How the data were processed

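Paired reads of 101 nt came from genomic DNA, per the labels. Single-base calls were deposited as 1 file per library, in VCF 4.1 format and made with samtools 0.1.19-44428cd, per the file headers. Bowtie, SAMtools, Bismark and TAIR10 are named in the submitters' processing notes, without roles. Which filters the calls had passed is not given in the sources used here. QUAL is a phred-scaled score given by the authors' caller, and the depth, the high-quality read numbers and the genotype are other deposited values. Mapping quality was 20 at every call used. Uncalled sites are not listed, and such a site may lack reads.

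Reference bases of all 34875 calls on chromosomes 1 to 5 matched the RefSeq copy of TAIR10, which gave the gene models. Protein-altering means stop-gained, splice-site (2 intron bases next to an exon) or missense. Pericentromeres were within 3 Mb of approximate centromeres at 15, 3.6, 14, 4 and 12 Mb of chromosomes 1 to 5, and arms were the rest. Blocks are runs of at least 3 calls, and listed reference-base runs hold at least 8, with single exceptions bridged. Similar places were searched with BLAST+ 2.17.0. The arms were compared over the 4 lines, 1 library each, by exact sign-flip permutation. Intervals cover counting error only.

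Named genes were DDM1, genes with homozygous protein-altering calls in the run around DDM1 (up to 12 per line, stop codons first, then by QUAL), genes with stop or splice changes, genes altered in 2 or more lines, altered list genes, and calls at run ends and breakpoints. Symbols are those of RefSeq. The calls, lists and tests were chosen with earlier results of these data known. The scripts were tested on simulated data and ran under Biopython 1.88, matplotlib 3.10.9, scipy 1.17.1, numpy 2.4.6 and Python 3.11.15.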

Additional observations from a re-analysis of the deposited data

Results flagged for a closer look

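In 17 quantities with 1 value per line, 5 had a line far from the other 3 by Dixon's criterion for 4 values. Chance gives about 1 in 20 for independent, normally spread values. These quantities overlap, and several are shares near 0 or 100%, so that rate cannot be set against the 5 of 17. Line 2-20 was far from the others in 4 of them. Its run around DDM1 was 24.8 Mb, against 4.94 to 8.15 Mb in the other lines, but it was not far from them by this criterion with single heterozygous calls bridged (11.3 to 18.9 Mb in the others), and with no limits on quality and depth its run was 2.64 Mb, shorter than the 8.15 Mb of 2-69. Its protein-altering share on the upper arm was 20%, against 41.7 to 42.9%. The exact binomial 95% interval of that share, 7.71 to 38.6%, overlapped those of the other lines. Its homozygous share on the lower arm was 100%, against 97.4 to 97.7%, which is a difference of 1 or 2 calls per line, and with no limits it was 84.6%, within the 75.4 to 92.5% of the others. Its share of C as the reference base on the lower arm was 27.5%, against 0 to 1.15%. Line 2-69 was far from the others in its upper-arm density of 11.7 calls per Mb, against 3.33 to 4. With no limits on quality and depth 3-72, the line read least deeply, had 13.1 calls per Mb there, near the 15.2 of 2-69.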

How the results depend on the processing

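Of 86 recomputed values 78 kept their direction and, where they have no test, stayed within 1 SD of the reported value or within 1.5 times a count. Of the rest, 6 counts moved further and 2 values reversed. Every result was unchanged when positions called in another file were left out. The same held with sharing judged over the 4 line files, and without clusters of 3 calls within 100 bp. Such unchanged values are among the 78 and say little about stability. Density, lower minus upper arm, reversed to 2.86 calls per Mb at a QUAL of at least 100, and to 0.657 without 2-69. The mean number of calls per line was 172 at any quality and depth, 72.75 at a QUAL of at least 100 and 60.75 at 20 or more reads. The mean number of homozygous protein-altering changes around DDM1 was 5.75 at any quality, 17.25 at a QUAL of at least 100 and 21.25 with single heterozygous calls bridged. The mean run around DDM1 was 3.39 Mb at any quality, 18.5 Mb at a QUAL of at least 100 and 18.9985 Mb with bridging and the calls between the arms added, an alternative chosen after seeing the data. These run lengths counted as kept only because the reported 10.96 Mb has an SD of 9.32 Mb over the lines. The cause was not tested.

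With each line left out in turn, the homozygous share differed by 49.4 to 75.5 points, density by −1.70 to 0.657 calls per Mb, the share of C by −67.7 to −26.3 points and the protein-altering share by −11.7 to −4.56 points. The mean run ranged from 6.35 to 13.0 Mb, the mean number of calls from 86.3 to 127, and the mean number of homozygous protein-altering changes around DDM1 from 9.67 to 13.7. The arm tests pair both arms of each line. Between libraries, no paired analysis was possible because the 4 lines have 1 library each and their labels carry no replicate numbers. Depth limits zygosity most in 3-72, where the median was 14 reads, and breakpoints are known only to the nearest calls.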
